A study of Mus musculus with 6 samples.

Results

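The genes of the TNF superfamily, its ligands and its receptors, were followed in mouse cells sorted by NK1.1, a marker of natural killer (NK) cells. Members were taken by symbol from the probe sets that name a single gene, and the symbols were the Tnfsf and Tnfrsf genes with Tnf, Lta, Ltb, Ltbr, Fas, Fasl, Cd27, Cd40, Cd40lg and Cd70. They came to 39 of the 19943 genes measured, 15 ligands and 24 receptors, each read by 1 probe set. Tnfsf12 and Tnfsf13 share a probe set and have no value of their own here.

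Affymetrix arrays measured total RNA in 2 groups of 3, called IL-18 generated and unstimulated by the labels, which state that the preparations were independent. According to the labels, NK1.1 isolated cells were grown overnight with 300 IU IL-2 and 25 ng/ml IL-18, and a later sort of live cells required NK1.1 and excluded CD3 in both groups. The sort of IL-18 generated cells kept those with c-kit and without CD11b, and that of unstimulated cells kept those with CD11b and without c-kit. The labels print the same culture text for both groups, and leave unclear whether unstimulated cells were cultured at all. Strain and age are not stated. The gate differed between the groups, and cytokine and culture may have differed with it. These cannot be told apart.

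TNF family ligands are trimeric proteins of the cell surface, some of them shed by proteases, and each binds 1 or a few receptors of the matching family. Receptors with a death domain can start apoptosis. Many receptors of the family, some with a death domain among them, recruit TRAF adaptors and activate NF-kB. Decoy receptors bind a ligand without passing on a signal. NK cells use TRAIL and Fas ligand to kill, TNF and lymphotoxins as secreted cytokines, and receptors such as 4-1BB, GITR and CD27 for costimulation.

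Each value is a difference from the probe set's own median across arrays, read here as log2. It shows differences between arrays but no expression level, and levels of different genes cannot be compared. Where the groups do not overlap, the nearest array of each group has the same size with opposite sign, which follows from this centring. A change is the mean of the 3 IL-18 arrays minus the mean of the 3 unstimulated arrays, given ± SE. A gene is said to rise or fall where its adjusted p was below 0.05 in limma's test (Benjamini-Hochberg over all 19943 genes). The p-values measure spread among 6 arrays only, and this small number limits how precise they are. Kit and Itgam, the genes of the c-kit and CD11b gates, had changes of 2.79 and -5.32 and followed the labels. Both sorts required NK1.1, but its gene Klrb1c was lower on the IL-18 arrays, with a change of -2.03. Both sorts excluded CD3, but Cd3d, Cd3e and Cd3g were higher on the IL-18 arrays, with changes of 1.11, 1.26 and 1.60. All 7 NK marker genes measured, Ncr1, Klrb1c and Nkg7 among them, were lower on the IL-18 arrays, with a median change of -0.87, and relative values cannot show whether they were present.

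Of the 39 members, 17 rose and 8 fell, and 14 did not pass. Together 64.1% passed, against 36.4% of all genes. This is 43.6% higher and 20.5% lower, against 19.7% and 16.7% of all genes. Increases were the larger changes: 11 members rose by a log2 of at least 1 and 9 by at least 2, while 3 fell by at least 1 and 0 by at least 2. Among all genes, 3.62% rose by at least 1, 0.496% rose by at least 2, 3.24% fell by at least 1 and 0.923% fell by at least 2. The median change was 0.20 over the members and -0.06 over all genes. For 28 of the 39 members (71.8%) no array of either group lay within the range of the other, against 48.6% of all genes. The IL-18 arrays were the higher ones for 19 of these (22.9% of all genes) and the lower ones for 9 (25.7% of all genes). Among the 17 members that rose, IL-18 replicate 2 was the lowest of the IL-18 arrays for 12 and IL-18 replicate 1 the highest for 10.

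**Figure D1:**
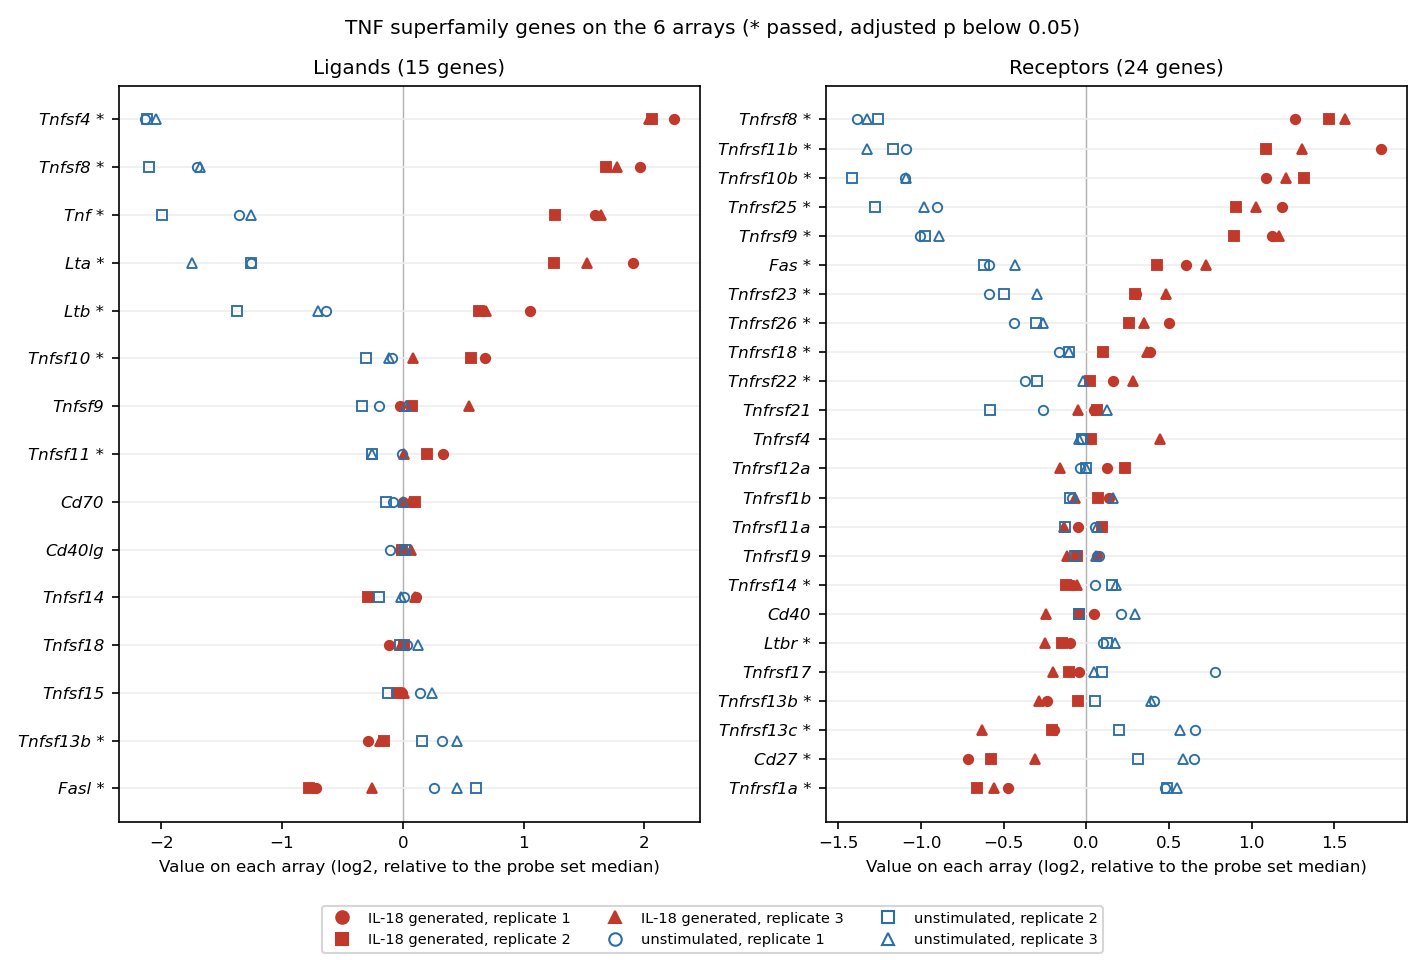
Value of each member on the 6 arrays (log2, relative to the probe set median), ligands on the left and receptors on the right, ordered by change. Filled red symbols are IL-18 generated and open blue symbols unstimulated arrays, with a shape for each replicate number. Tnfsf4, Tnfsf8, Tnf and Lta stand apart among ligands with changes of 2.98 to 4.21, and 5 receptors with changes of 2.02 to 2.76.

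Among the 15 ligands, 7 rose (46.7%) and 2 fell (13.3%), beside 19.7% and 16.7% of all genes. Their median change was 0.35. Tnfsf4, which encodes OX40 ligand, a costimulator of T cells, had values of 2.24, 2.07 and 2.04 on the IL-18 arrays (replicates 1 to 3, as in all such sentences) and -2.13, -2.12 and -2.04 on the unstimulated arrays. Replicates were close, with SDs of 0.11 and 0.05, while the groups stood 4.08 apart. The change was 4.21 ± 0.08 (n = 3 arrays per group, as for every change here), or 18.6-fold, with a limma adjusted p of 1.98e-09. Tnfsf8, which encodes CD30 ligand, had values of 1.97, 1.68 and 1.77 against -1.70, -2.10 and -1.68. The groups were far apart again, with unstimulated replicate 2 the lowest array. Its change was 3.63 ± 0.12, or 12.4-fold, with a limma adjusted p of 2.46e-08.

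Tnf, the founding inflammatory cytokine of the family, stood at 1.59, 1.26 and 1.64 on the IL-18 arrays and at -1.35, -2.00 and -1.26 on the unstimulated ones. Here too unstimulated replicate 2 lay below its group. The change was 3.04 ± 0.18 (8.20-fold, limma adjusted p 5.63e-07), and 2.81 without that array. Lta, which encodes the secreted lymphotoxin alpha, had values of 1.90, 1.25 and 1.52 against -1.26, -1.25 and -1.75. The groups did not overlap, and the IL-18 arrays spread more than those of Tnfsf4. The change of Lta was 2.98 ± 0.17 (7.89-fold, limma adjusted p 5.1e-07). Ltb, whose product anchors lymphotoxin alpha at the membrane, rose less, with values of 1.05, 0.63 and 0.69 against -0.63, -1.37 and -0.70. Unstimulated replicate 2 was the lowest array once more. The change was 1.69 ± 0.18 (3.23-fold, limma adjusted p 3.84e-05), and 1.46 without that array.

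The stretches of 250 bases before the RefSeq start are shown for the 3 ligand genes with a change of at least 2 for which the promoter table has an entry, because these genes moved most. Promoters were read from RefSeq on GRCm38.p6, where 30 of the 39 members matched an entry, and Tnfsf4, Tnfrsf10b and Tnfrsf11b did not. Each is printed 5′ to 3′ on the strand of the gene, and capitals mark matches on either strand to the NF-kB consensus, the AP-1 motif TGANTCA, the cyclic AMP response motif TGACGTCA or the TATA motif TATAAA. The Tnf stretch lies at chr17:35202008-35202257, minus strand, the Lta stretch at chr17:35205352-35205601, minus strand, and the Tnfsf8 stretch at chr4:63861285-63861534, minus strand.
Tnf: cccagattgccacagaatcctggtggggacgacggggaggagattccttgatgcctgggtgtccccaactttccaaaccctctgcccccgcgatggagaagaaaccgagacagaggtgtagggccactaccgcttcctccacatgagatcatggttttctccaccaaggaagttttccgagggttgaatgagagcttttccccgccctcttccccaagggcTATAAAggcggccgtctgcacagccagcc
Lta: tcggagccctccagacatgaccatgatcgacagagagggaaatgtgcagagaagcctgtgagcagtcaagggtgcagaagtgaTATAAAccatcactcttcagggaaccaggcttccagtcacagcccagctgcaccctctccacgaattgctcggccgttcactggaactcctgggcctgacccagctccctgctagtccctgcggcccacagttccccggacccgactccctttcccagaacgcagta
Tnfsf8: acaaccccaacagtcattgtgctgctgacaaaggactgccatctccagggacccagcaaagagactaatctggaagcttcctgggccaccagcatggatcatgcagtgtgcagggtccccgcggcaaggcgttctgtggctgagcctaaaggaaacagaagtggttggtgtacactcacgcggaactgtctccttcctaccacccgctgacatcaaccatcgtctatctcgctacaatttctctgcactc
A TATAAA match lay at positions -29 to -24 of Tnf and at -167 to -162 of Lta, counted back from the start. None of the 4 motifs matched in the Tnfsf8 stretch. Of all 32851 promoter stretches of this length, 12.4% held TATAAA, 7.25% the NF-kB consensus, 6.75% TGANTCA and 1.55% TGACGTCA. Such matches describe the letters of this window and are no sign of binding.

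TRAIL and Fas ligand, through which NK cells kill, moved in opposite directions. Tnfsf10, which encodes TRAIL, had values of 0.68, 0.57 and 0.09 against -0.09, -0.31 and -0.11. IL-18 replicate 3 lay close to the unstimulated arrays. Its change was 0.61 ± 0.14 (limma adjusted p 0.00575). Fasl, which encodes Fas ligand, was lower on the IL-18 arrays at -0.72, -0.77 and -0.26 than on the unstimulated ones at 0.26, 0.61 and 0.45. IL-18 replicate 3 was again the array nearest the other group. The change was -1.02 ± 0.14, so that unstimulated cells stood 2.03-fold above IL-18 generated cells (limma adjusted p 0.000194).

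Tnfsf13b, which encodes the B cell survival factor BAFF, was the other ligand that fell. Its values were -0.29, -0.16 and -0.19 against 0.33, 0.16 and 0.45, with no overlap, and its change was -0.52 ± 0.09 (limma adjusted p 0.00103). Monocytes and dendritic cells also make BAFF, and all 7 monocyte markers measured fell, with array means over the list of -1.47 to -1.27 on the IL-18 arrays and 1.20 to 1.77 on the unstimulated ones. The part of such cells in the change of Tnfsf13b was not tested. On bulk arrays fewer cells of a type and less RNA per cell cannot be told apart.

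Tnfsf11 (RANK ligand), a differentiation factor of osteoclasts and lymph nodes, had values of 0.33, 0.20 and 0.01 against -0.01, -0.25 and -0.26. The groups were separated by only 0.02. Its change of 0.35 ± 0.10 passed with a limma adjusted p of 0.0213, and did not pass without IL-18 replicate 1 or 2 or unstimulated replicate 2 or 3 (limma adjusted p 0.0524 to 0.086). The other 6 ligands did not pass. For Tnfsf9, which encodes the 4-1BB ligand, values were -0.02, 0.08 and 0.55 against -0.20, -0.34 and 0.02, and its change was 0.37 ± 0.15 (limma adjusted p 0.073). Only its IL-18 replicate 3 lay clearly above the unstimulated arrays. The change of Tnfsf9 was 0.20 without that array and 0.48 without IL-18 replicate 1, with limma adjusted p of 0.245 and 0.0332, and the latter passed. Cd70, which encodes the ligand of CD27, had values of 0.0005, 0.10 and 0.06 against -0.08, -0.14 and -0.0005. The groups touched at 0, and the change was 0.13. Cd40lg, a T cell ligand that activates B cells, had values of -0.02, -0.01 and 0.07 against -0.11, 0.02 and 0.01, with a change of 0.04 and a 95% interval of -0.13 to 0.21. Tnfsf18 (GITR ligand) had values of -0.11, 0.01 and -0.01 against 0.04, -0.03 and 0.13, with a change of -0.08 and a 95% interval of -0.26 to 0.09. Both groups overlapped in Cd40lg and in Tnfsf18. Tnfsf15 (TL1A) stood at -0.01, -0.05 and 0.01 against 0.14, -0.12 and 0.24, and its change was -0.10. Tnfsf14 (LIGHT) stood at 0.11, -0.29 and 0.10 against 0.01, -0.20 and -0.01, and its change was 0.04. Replicate 2 was the lowest array of both groups in Tnfsf14. Tnfsf14 had a change of -0.03 with array weights and -0.03 without any of IL-18 replicate 1, IL-18 replicate 3 or unstimulated replicate 2.

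Of the 24 receptors, 10 rose (41.7%) and 6 fell (25.0%), beside 19.7% and 16.7% of all genes. Their median change was 0.14. Tnfrsf8, which encodes CD30, the receptor of the Tnfsf8 product, had the largest change among receptors. Its values were 1.26, 1.47 and 1.57 on the IL-18 arrays and -1.39, -1.26 and -1.33 on the unstimulated ones. Replicates of both groups lay close together beside a gap of 2.52. The change was 2.76 ± 0.09, or 6.77-fold (limma adjusted p 2.43e-08). Tnfrsf9, which encodes 4-1BB, a costimulator also used as an activation marker, had values of 1.12, 0.89 and 1.16 against -1.0, -0.98 and -0.89. Its groups were as clearly apart, and the change was 2.02 ± 0.09, or 4.05-fold (limma adjusted p 9.57e-08).

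All 4 genes listed as receptors of TRAIL rose, beside 19.7% of all genes. Tnfrsf10b, the death receptor for TRAIL in the mouse, stood at 1.09, 1.32 and 1.21 against -1.10, -1.42 and -1.09. All IL-18 arrays were at least 2.18 above all unstimulated arrays. The change was 2.41 ± 0.11, or 5.30-fold (limma adjusted p 9.2e-08). Tnfrsf11b encodes osteoprotegerin, a secreted decoy that binds RANK ligand and TRAIL, and had values of 1.78, 1.09 and 1.30 against -1.09, -1.17 and -1.33. IL-18 replicate 1 was the highest array, and the spread of the IL-18 arrays (SD 0.35) was the widest among the members that passed. The change was 2.59 ± 0.15 (6.0-fold, limma adjusted p 5.84e-07). The membrane decoys for TRAIL had smaller changes. Tnfrsf23 stood at 0.30, 0.30 and 0.48 against -0.59, -0.50 and -0.30, a rise of 0.82 ± 0.10 (limma adjusted p 6.39e-05). Tnfrsf22 stood at 0.16, 0.02 and 0.28 against -0.37, -0.30 and -0.02, a rise of 0.38 ± 0.11 (limma adjusted p 0.0167). The groups of Tnfrsf22 were only 0.04 apart. Tnfrsf22 did not pass without IL-18 replicate 3 (0.066) or unstimulated replicate 1 (0.072). Tnfrsf26, a related receptor gene next to them, rose by 0.71 ± 0.09 (limma adjusted p 0.000104). These 3 genes are close copies of each other that can share probes, and their separate values are uncertain.

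Of the 5 members listed as receptors with a death domain, 3 rose, 1 fell and 1 did not pass. Among all genes 19.7% rose and 16.7% fell. Receptors outside the symbol rule are not in this count, among them Ngfr, which fell (-0.31), and Edar, which was not called (-0.10). Beside Tnfrsf10b, Tnfrsf25, which encodes DR3, the receptor of TL1A, stood at 1.19, 0.91 and 1.03 against -0.91, -1.28 and -0.98. No arrays overlapped, and the change was 2.09 ± 0.11 (4.27-fold, limma adjusted p 3.24e-07). Fas had values of 0.60, 0.43 and 0.73 against -0.59, -0.62 and -0.43. The gap between groups was 0.86, and the change was 1.13 ± 0.09 (2.19-fold, limma adjusted p 6.11e-06). Tnfrsf1a, the main death domain receptor for TNF, was the member with the largest decrease. Its values were -0.48, -0.66 and -0.56 against 0.48, 0.49 and 0.55. Replicates were tight in both groups, and the change was -1.07 ± 0.08, with unstimulated cells 2.10-fold above IL-18 generated cells (limma adjusted p 2.36e-06). Many myeloid cells express Tnfrsf1a too, and the monocyte and neutrophil markers fell on the same arrays. The part of such cells was not tested. Tnfrsf21, known as death receptor DR6, showed a difference of 0.26 ± 0.15 that did not pass (limma adjusted p 0.195). It was 0.09 without unstimulated replicate 2 and 0.44 without unstimulated replicate 3, with limma adjusted p of 0.532 and 0.012.

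For the 3 receptor genes with a change of at least 2 and a promoter entry, the stretches before the start are shown with the same capitals, because these receptors moved most among those with an entry. Tnfrsf8 lies at chr4:145315165-145315414, minus strand. Tnfrsf9 has 2 starts in the table, and the stretch before the downstream start, at chr4:150927749-150927998, plus strand, is printed because the other held no match, a choice made after the search. For Tnfrsf25, also with 2 starts, the stretch before the upstream start is printed, at chr4:152115684-152115933, plus strand.
Tnfrsf8: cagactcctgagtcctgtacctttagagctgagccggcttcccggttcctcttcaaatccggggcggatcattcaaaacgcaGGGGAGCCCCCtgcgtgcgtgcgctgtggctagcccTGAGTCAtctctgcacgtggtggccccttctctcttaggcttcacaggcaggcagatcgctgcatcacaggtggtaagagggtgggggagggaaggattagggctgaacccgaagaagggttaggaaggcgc
Tnfrsf9: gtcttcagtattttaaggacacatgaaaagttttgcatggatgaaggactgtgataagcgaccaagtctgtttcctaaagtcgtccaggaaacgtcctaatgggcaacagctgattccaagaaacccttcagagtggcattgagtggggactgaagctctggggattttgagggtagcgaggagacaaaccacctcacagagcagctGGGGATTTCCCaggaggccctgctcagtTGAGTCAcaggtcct
Tnfrsf25: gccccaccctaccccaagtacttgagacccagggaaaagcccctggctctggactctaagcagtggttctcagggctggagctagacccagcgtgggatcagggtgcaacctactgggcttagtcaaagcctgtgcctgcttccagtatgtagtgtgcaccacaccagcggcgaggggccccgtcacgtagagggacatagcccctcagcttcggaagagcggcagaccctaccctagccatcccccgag
The stretches of Tnfrsf8 and Tnfrsf9 each held a pair of overlapping NF-kB consensus matches and a TGANTCA match. In Tnfrsf9 these lay between -43 and -33 and between -15 and -9, and in Tnfrsf8 between -168 and -158 and between -132 and -126. The printed stretch of Tnfrsf25 held none of the 4 motifs, while the stretch before its downstream start held an NF-kB consensus match at -28 to -19. In all, 3 of the 8 stretches of members with a change of at least 2 held the NF-kB consensus and 2 held TGANTCA, beside the shares of all promoters given above. Across all members, 4 of 34 stretches held the NF-kB consensus and 5 held TGANTCA, and 0 held TGACGTCA. Ltb supplied the fourth NF-kB match, at -87 to -78.

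Cd27, a costimulatory receptor of lymphocytes whose ligand is CD70, fell. Its values were -0.71, -0.58 and -0.31 against 0.65, 0.31 and 0.58. IL-18 replicate 3 and unstimulated replicate 2 were the arrays nearest each other. The change was -1.05 ± 0.12 (2.07-fold lower in IL-18 generated cells, limma adjusted p 5.51e-05). The receptors shared by lymphotoxin and LIGHT fell by less. Ltbr, the lymphotoxin beta receptor, stood at -0.10, -0.15 and -0.25 against 0.10, 0.12 and 0.18, and its change was -0.30 ± 0.08 (limma adjusted p 0.0101). Its groups were separated by 0.20. Tnfrsf14 (HVEM), which also binds BTLA, had values of -0.09, -0.12 and -0.05 against 0.05, 0.16 and 0.18. The change was small, -0.22 ± 0.07, with a limma adjusted p of 0.0414. It did not pass with quantile normalization (0.0662), with centred arrays (0.0832), or without any of 5 arrays, all but unstimulated replicate 1 (0.0633 to 0.136).

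The receptors for BAFF and APRIL are best known from B cells and plasma cells. Tnfrsf13c (BAFF receptor) had values of -0.20, -0.21 and -0.63 against 0.66, 0.20 and 0.57, and its change was -0.82 ± 0.14 (limma adjusted p 0.00109). Tnfrsf13b (TACI) had values of -0.24, -0.05 and -0.29 against 0.41, 0.05 and 0.39, with a change of -0.48 ± 0.11 (limma adjusted p 0.00596). In both genes unstimulated replicate 2 was the lowest unstimulated array. Tnfrsf17 (BCMA) stood at -0.04, -0.10 and -0.20 against 0.78, 0.10 and 0.04, and only unstimulated replicate 1 was far from the rest. Its change of -0.42 ± 0.17 did not pass (limma adjusted p 0.0717). Without unstimulated replicate 1 the change of Tnfrsf17 was -0.19 (limma adjusted p 0.14), and it passed without unstimulated replicate 2 or 3 (0.0414 and 0.0357) and with array weights (0.0452). Over all 14 alternatives its adjusted p ran from 0.0133 to 0.174. Of 7 B cell markers measured, 6 fell and Cr2 did not pass, with array means over the list of -0.32 to -0.17 on the IL-18 arrays and 0.48, 0.11 and 0.28 on unstimulated replicates 1, 2 and 3. Cd79b and Cd22 had changes of -0.93 and -1.18. The part of B cells in the changes of these receptors was not tested.

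Tnfrsf18, which encodes GITR, rose modestly. Its values were 0.39, 0.10 and 0.36 against -0.16, -0.10 and -0.10, and the change was 0.41 ± 0.09 (limma adjusted p 0.00455). IL-18 replicate 2 lay closest to the unstimulated arrays. The other receptors did not pass. Tnfrsf4, which encodes OX40, had values of 0.02, 0.03 and 0.45 against -0.02, -0.03 and -0.04. Only IL-18 replicate 3 stood out, and the change of 0.20 ± 0.11 had a 95% interval of -0.05 to 0.45. It was 0.06 without that array. Tnfrsf1b, the receptor for TNF without a death domain, had values of 0.14, 0.07 and -0.07 against -0.09, -0.10 and 0.16, and its change was 0.05 with a 95% interval of -0.16 to 0.26. The groups overlapped. Cd40, a receptor of antigen presenting cells, stood at 0.04, -0.04 and -0.24 against 0.21, -0.05 and 0.29. Its change was -0.23 ± 0.11 (limma adjusted p 0.121). Without IL-18 replicate 3 the change of Cd40 was -0.15 (limma adjusted p 0.369), without unstimulated replicate 3 it was -0.16 (0.346), and without unstimulated replicate 2 it was -0.33 and passed (0.0239). Tnfrsf11a (RANK) stood at -0.05, 0.10 and -0.14 against 0.05, -0.13 and 0.06, with a change of -0.03. Tnfrsf12a (the TWEAK receptor Fn14) had a change of 0.08 and Tnfrsf19 (TROY) of -0.06. Tnfrsf11a and Tnfrsf12a changed sign when some arrays were left out, with ranges of -0.09 to 0.03 and -0.0035 to 0.19.

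Reading the family as ligands with their receptors, 28 known pairs were listed and both genes were measured for 25, made of 15 ligands and 20 receptors. Pairs share genes and are not independent of each other. Both genes rose in 6 pairs, and 4 of these were TRAIL with its receptor Tnfrsf10b and its decoys Tnfrsf11b, Tnfrsf22 and Tnfrsf23. CD30 ligand with CD30 was the pair with large changes on both sides, 3.63 for Tnfsf8 and 2.76 for Tnfrsf8. The sixth was Tnfsf11 with its decoy Tnfrsf11b. As given above, Tnfsf11 and Tnfrsf22 lost their calls without some arrays, and the separate values of Tnfrsf22 and Tnfrsf23 are uncertain.

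In 4 pairs the ligand rose and the receptor fell. They joined Tnf and Lta to Tnfrsf1a, Lta to Tnfrsf14 and Ltb to Ltbr, so each of these ligands had at least 1 receptor that fell. The call of Tnfrsf14 was lost under several settings, as given above. The ligand rose and the receptor did not pass in 4 others, OX40 ligand with OX40 (4.21 against 0.20), Tnf and Lta with Tnfrsf1b, and Tnfsf11 with Tnfrsf11a. Fas and its ligand made the single pair in which the ligand fell and the receptor rose, with changes of -1.02 and 1.13. Both genes fell in 2 pairs, Tnfsf13b with Tnfrsf13b and with Tnfrsf13c, and in the pair of Tnfsf13b with Tnfrsf17 the receptor did not pass. The receptor rose beside a ligand that did not pass in 3 pairs. These were 4-1BB (2.02 for Tnfrsf9, 0.37 for Tnfsf9), DR3 (2.09 for Tnfrsf25, -0.10 for Tnfsf15) and GITR (0.41 for Tnfrsf18, -0.08 for Tnfsf18). The receptor fell beside a ligand that did not pass in 3 more, Cd70 with Cd27, and Tnfsf14 with Ltbr and with Tnfrsf14. Neither gene of Cd40lg and Cd40 passed.

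**Figure D2:**
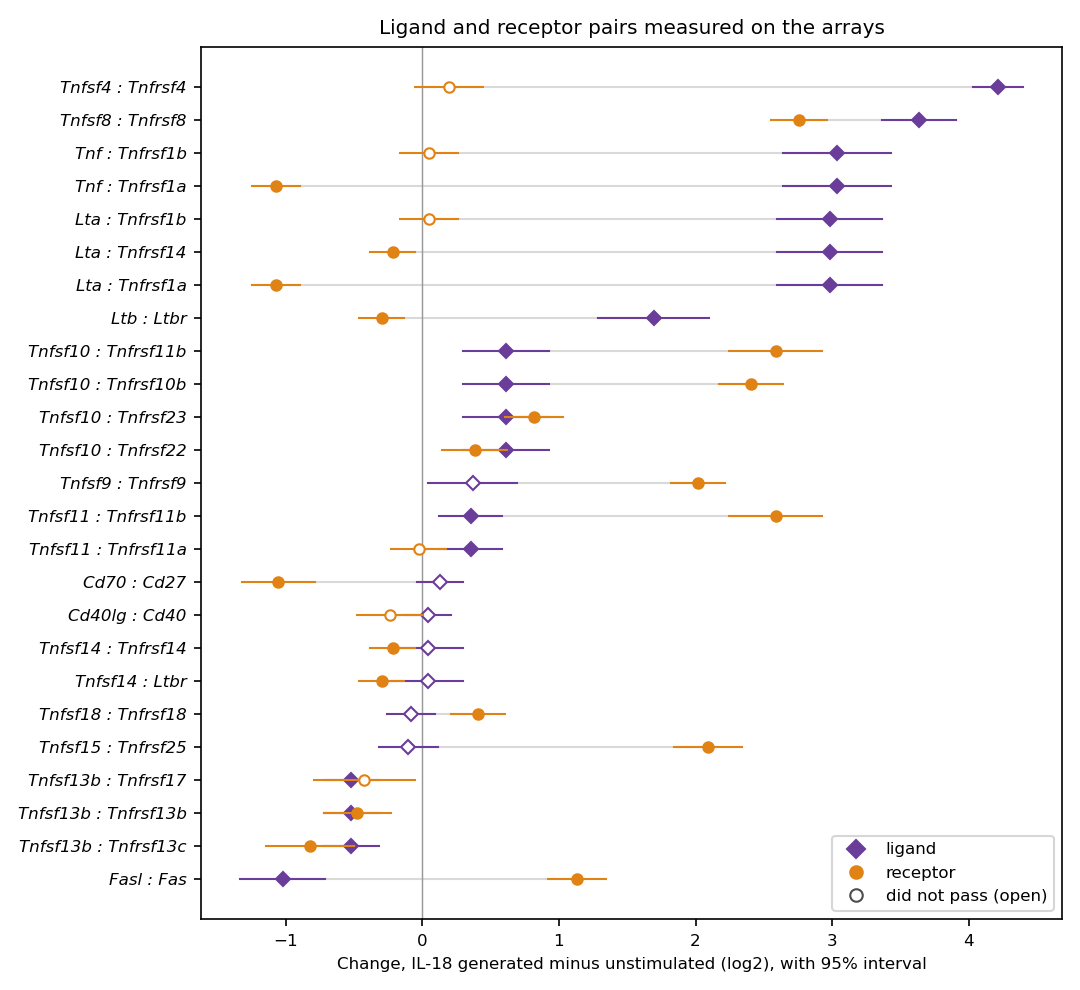
Change of the ligand (purple diamond) and of the receptor (orange circle) in each of the 25 pairs, in log2 with 95% intervals, filled where the gene passed. Tnfsf8 and Tnfrsf8 lie together at 3.63 and 2.76, whereas Tnfsf4 lies at 4.21 beside Tnfrsf4 at 0.20 and the Fas pair lies on both sides of 0.

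Many family genes are neighbours on a chromosome, a feature that the symbols do not use. By the RefSeq gene order on GRCm38.p6, 20 of the 41 listed family genes stand next to another with no other protein-coding gene between them, in 8 runs, of which 7 held measured members. All 3 genes of the run Ltb, Tnf and Lta on chromosome 17 rose (1.69, 3.04 and 2.98), as did all 3 of Tnfrsf26, Tnfrsf22 and Tnfrsf23 on chromosome 7 (0.71, 0.38 and 0.82). The other runs were mixed or flat. On chromosome 1 the run held Tnfsf4 at 4.21, Tnfsf18 at -0.08 and Fasl at -1.02. On chromosome 4, Tnfsf8 at 3.63 stands beside Tnfsf15 at -0.10, and Tnfrsf8 at 2.76 beside Tnfrsf1b at 0.05. The run Tnfsf9, Cd70 and Tnfsf14 on chromosome 17 held no gene that passed. Differences between neighbours were not tested.

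**Figure D3:**
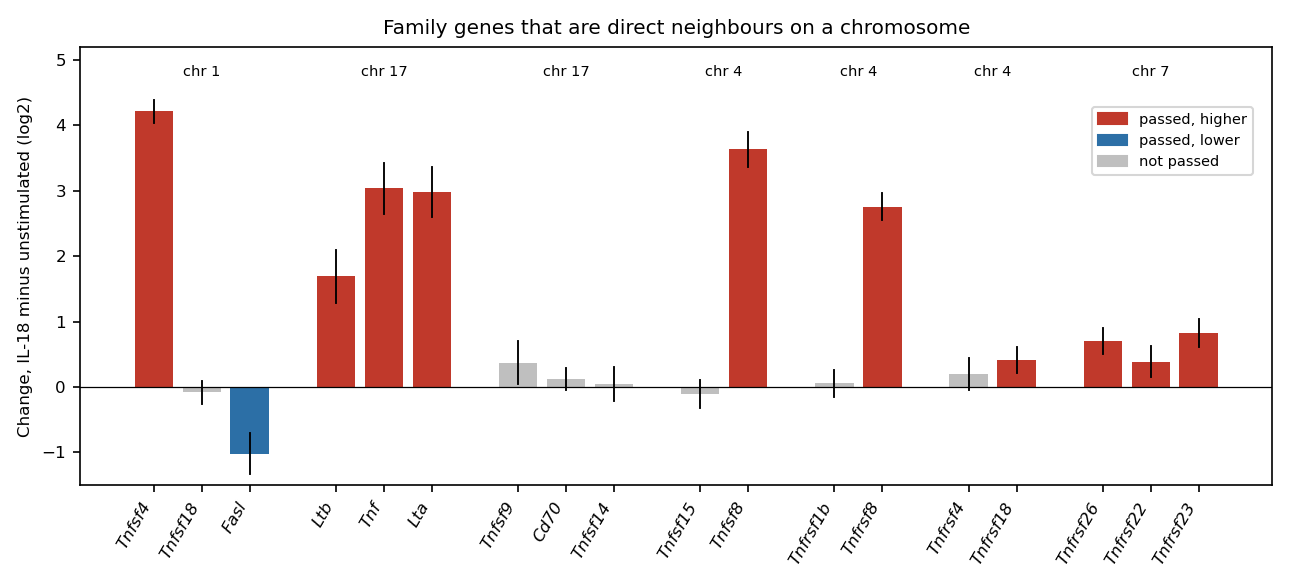
Change of the measured members in the 7 runs of neighbouring family genes, in log2 with 95% intervals, coloured by call. The Ltb, Tnf and Lta run is higher throughout, and the run of Tnfsf4, Tnfsf18 and Fasl goes from 4.21 to -1.02.

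Below the receptors, 59 genes that carry or limit their signals were listed, and 53 were measured. Their median change was 0.10. Of these 53 genes, 21 rose (39.6%) and 10 fell (18.9%), beside 19.7% and 16.7% of all genes. Of 16 adaptors and ubiquitin regulators, 7 rose (43.8%) and 2 fell (12.5%). Traf1, an adaptor of CD30, 4-1BB and OX40, rose by 1.89 ± 0.08 and stood at 0.99, 0.88 and 1.04 against -0.94, -0.93 and -0.88. Its replicates were tight. Traf4 rose by 1.01 ± 0.10 and Tnfaip3, the ubiquitin editor A20 that limits NF-kB, by 0.98 ± 0.10. Traf5, an adaptor of CD27 and OX40, fell with -0.78 ± 0.08 and Sharpin, part of the linear ubiquitin ligase, with -0.26 ± 0.09. Tradd and Fadd, the death domain adaptors, had changes of -0.12 and -0.05 and did not pass.

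Of 14 NF-kB kinases, subunits and inhibitors, 8 rose (57.1%) and 2 fell (14.3%), beside 19.7% and 16.7% of all genes. Nfkb2 and Relb, the subunits of the non-canonical branch that CD30, 4-1BB and the lymphotoxin beta receptor can engage, rose by 1.30 ± 0.10 and 0.77 ± 0.08. The inhibitor gene Nfkbia rose by 0.68 ± 0.12, while Ikbkb and Nfkbie fell with -0.44 ± 0.09 and -0.41 ± 0.09. Of 7 death effectors, 2 rose (28.6%) and 1 fell (14.3%), beside the same shares of all genes. Mlkl, the executor of necroptosis, rose by 1.25 ± 0.11 and Diablo by 0.61 ± 0.10, and Ripk3 fell with -0.35 ± 0.08. Casp8 had a change of -0.23 (limma adjusted p 0.0597) and Cflar, its inhibitor, of -0.04, and neither passed.

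Of 7 genes of ligand shedding and processing, 1 rose (14.3%) and 2 fell (28.6%), beside 19.7% and 16.7% of all genes. Furin, a protease that matures proproteins including some of these ligands, rose by 1.75 ± 0.09, while Adam10 and Sppl2b fell with -0.34 ± 0.07 and -0.29 ± 0.08. Adam17, which sheds TNF, was not called (-0.08 ± 0.10). Of 9 genes that control the stability or translation of such mRNAs, 3 rose (33.3%) and 3 fell (33.3%). Zfp36, which encodes tristetraprolin, the factor that destabilises Tnf mRNA, fell with -2.18 ± 0.17 (limma adjusted p 3.68e-06), from 1.59, 0.80 and 1.43 on the unstimulated arrays to -0.94, -0.98 and -0.80 on the IL-18 arrays. The groups were 1.60 apart. Its relative Zfp36l2 fell with -0.89 ± 0.09 and Rc3h1, the RNA-binding protein roquin, with -0.30 ± 0.09. Zc3h12a, the ribonuclease regnase-1, rose by 1.76 ± 0.08, Elavl1 by 0.36 ± 0.07 and Rc3h2 by 0.27 ± 0.09. Limma adjusted p for the pathway genes named here as rising or falling was at most 0.0402, that of Sharpin. Among all pathway genes counted as rising or falling it was at most 0.0403, that of Tab1.

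**Figure D4:**
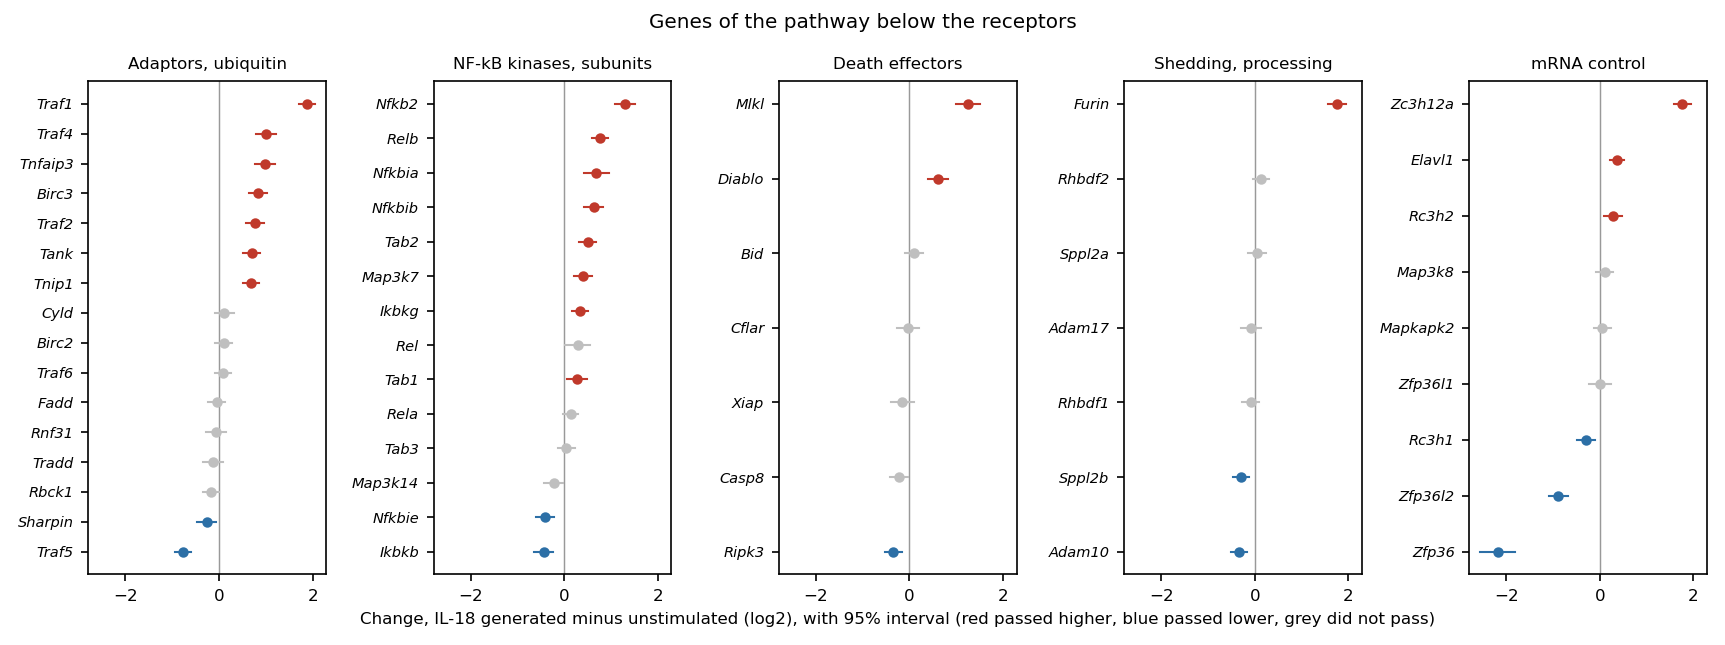
Change of the 53 measured pathway genes in 5 groups, in log2 with 95% intervals (red rose, blue fell, grey did not pass). Traf1, Zc3h12a, Furin, Nfkb2 and Mlkl lie at 1.25 to 1.89, and Zfp36 lies alone at -2.18.

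A few genes of the same families carry symbols outside the rule and were looked at separately, with the adaptor gene Edaradd. Of these 6, Relt, a receptor of lymphoid tissue, fell with -0.81 ± 0.11 (limma adjusted p 0.000195) and Ngfr, the low-affinity neurotrophin receptor, with -0.31 ± 0.09 (limma adjusted p 0.0197). Eda2r, an ectodysplasin receptor, rose by 0.37 ± 0.10 (limma adjusted p 0.0173). Eda, Edar and Edaradd were not called, with changes of -0.18, -0.10 and -0.24.

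Markers of other cells moved with the groups. All 9 neutrophil and all 6 basophil and mast cell markers fell, as did the 7 monocyte markers above. The largest decreases in these lists were -7.16 for Lyz2 (monocyte), -5.66 for Ngp (neutrophil) and -4.26 for Cpa3 (basophil and mast cell). Means over the neutrophil list ran from -1.29 to -1.07 on the IL-18 arrays and from 1.21 to 2.38 on the unstimulated ones, where unstimulated replicate 2 was the highest. Means over the basophil and mast cell list ran from -2.68 to -0.44 and from 0.44 to 2.16, so IL-18 replicate 2 and unstimulated replicate 3 lay nearest each other. Of 6 dendritic cell markers, 5 fell and Zbtb46 rose. Among 8 T cell markers, Cd3d, Cd3e and Cd3g rose and the others, Cd4 and Cd28 among them, did not pass. Helper-like innate lymphoid cells can also express c-kit, OX40 ligand and DR3. Of 3 such markers measured, Rora rose by 2.57 and Il7r by 0.79, and Gata3 had a change of -0.14 (limma adjusted p 0.202). Relative values cannot show which markers of any list were at background. What part any of these cells had in the changes of the members was not tested.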

How the data were processed

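The authors deposited log2 values, processed by them, for 28815 probe sets on each of 6 arrays. How they were summarized and normalized is not stated in the sources, nor is the base of the log. The log2 scale was inferred here from the widest range within a probe set, 7.77, which exceeds what log10 of a 16-bit scanner could give. That range does not exclude a natural log, and every fold given here rests on the log2 reading. Every probe set has a median of 0 over the 6 arrays, so the planned filter on low values and variance trend could not be run, and no detection calls were used. Array medians over genes lay between -0.025 and 0.039, and no further normalization was applied. Probe sets were named from the platform annotation: 21788 had 1 symbol, 1597 several and 5430 none, and genes with more than 1 probe set were averaged.

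The 2 groups of arrays entered a linear model in limma 3.58.1, run under R 4.3.3 with lmFit and moderated variances (eBayes, no trend, no covariate). Tests were two-sided, with Benjamini-Hochberg adjustment over 19943 genes. Python 3.11.15 with pandas 2.3.3, numpy 2.4.6 and matplotlib 3.10.9 made tables and figures. The procedure was tested on simulated data with independent normal noise. There, 67, 67 and 66 genes were changed by a log2 of 0.5, 1 and 2, and 55.2%, 94% and 100% of them were recovered. Of 174 calls, 8 were false. Far fewer genes changed in the simulation than were called in the data (36.4%), so its error rates need not hold for these arrays. The members and the gene lists were chosen with earlier results of these data known, so their counts are descriptions. Every member was named. By the rule for named genes, values by array were given for members changed by a log2 of at least 1, for their partners and for other members in a pair, and in each pathway list up to 3 genes were named in each direction, with Tradd, Fadd, Casp8, Cflar and Adam17 added after their values were seen. The 14 alternatives tried are given at the end.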

Additional observations from a re-analysis of the deposited data

How the results depend on the processing

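The planned variance trend and filter on low genes were not run, because centred values hold no level. The alternatives were probe sets as features, genes with 1 probe set only, robust eBayes, quantile normalization, centred arrays, array weights, a fold threshold, a replicate block and each array left out in turn. Requiring a log2 change of at least 1 left 11 members higher and 3 lower (from 17 and 8), 1 ligand lower, 6 receptors higher and 2 lower, 6 pathway genes higher and 1 lower, and 721 genes higher and 647 lower in all, because it removes small changes. Without 1 array, 16 to 17 members were higher and 7 to 9 lower. Over all genes these ranges were 3384 to 4178 higher and 2651 to 4408 lower. The largest all-gene counts, 4178 and 4408, came without unstimulated replicate 2, where 16 members were higher and 9 lower. That array had the lowest array weight, 0.46. The 14 members changed by a log2 of at least 1 kept their direction and stayed past the adjusted p under all 14 alternatives. Some of these could not alter that result. The fold threshold repeats the criterion that chose them, and the probe set settings leave their values unchanged, as each has 1 probe set. Fasl and Cd27 came below a log2 of 1 in some fits, to -0.93 and -0.96. Among smaller changes, Tnfsf11, Tnfrsf22 and Tnfrsf14 lost their calls under the settings given with them. Tnfrsf11a, not called, had a change of 0.022 with quantile normalization and 0.0052 with centred arrays, and -0.0904 to 0.026 without 1 array. Tnfsf14, not called, had -0.034 with array weights and -0.027 to 0.17 without 1 array, and Tnfrsf12a, not called, -0.0035 to 0.19. The cause was not tested. The replicate numbers were not used as pairs in the main model. Deviations of same-numbered arrays from their group means correlated with r = 0.24, 0.0074 and -0.020. Not every array correlated best with its own number, but with 3 arrays per group these correlations cannot exclude pairing. With the replicate number as a block, 18 members were higher and 8 lower, and 3949 and 3330 genes in all. In that fit Tnfsf9 (limma adjusted p 0.00807) and Tnfrsf17 (0.0133) passed and Tnfrsf14 (0.0707) did not. With 3 arrays per group and relative values, a small change may reflect a gene near background, which cannot be seen here.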

Other observations

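A probe set shared by Tnfsf12 and Tnfsf13, the genes of TWEAK and APRIL, and their readthrough transcript had values of -0.82, -0.90 and -0.80 on the IL-18 arrays and 0.80, 1.08 and 0.94 on the unstimulated arrays. Its change was -1.78 ± 0.09 (limma adjusted p 1.76e-06 over all 28815 probe sets), and the groups did not overlap. It was chosen after its values were seen, and which of the genes it reflects cannot be told apart.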
